A study of Mus musculus with 8 samples.

Results

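The nuclear genes of the mitochondrial respiratory chain were followed in brain RNA of mice labelled as lacking or carrying the gene of tumour necrosis factor (TNF). They were found by symbol: Nduf followed by a, b, c, s or v and a digit for complex I, Sdha to Sdhd for complex II, symbols starting Uqcr for complex III, Cox4 to Cox8 for complex IV and Atp5 for complex V. Of 19938 genes that a probe set names alone, 81 met this rule, namely 35 of complex I, 4 of complex II, 8 of complex III, 17 of complex IV and 17 of complex V. A gene with several probe sets was represented by the one with the highest mean over the arrays.

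The respiratory chain sits in the inner mitochondrial membrane. Complexes I (NADH dehydrogenase) and II (succinate dehydrogenase) pass electrons to ubiquinone, complex III (the cytochrome bc1 complex) passes them on to cytochrome c, and complex IV (cytochrome c oxidase) hands them to oxygen, while complexes I, III and IV pump protons that complex V (ATP synthase) uses to make ATP. Neurons draw most of their ATP from this chain, and except for complex II each complex also holds subunits encoded in mitochondrial DNA, which are not among these genes.

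Of 8 Affymetrix Mouse Gene 1.0 ST arrays, 4 are labelled TNF-/- (a homozygous loss of the TNF gene) and 4 are labelled TNF+/+ (wild type) and C57BL/6. The RNA was total RNA of brain lysates from adult males aged 2 to 4 months. For TNF-/- the labels name neither the targeted allele nor the strain background. The arrays of a group are called biological replicates, without naming the animals, so p-values measure the spread between these samples. The table holds log2 signal, so a difference of 1 is a doubling, and every difference is arrays labelled TNF-/- minus arrays labelled TNF+/+.

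Several features of the arrays bear on what follows. Tnf signal went against the labels: it was 5.67, 5.87, 5.92 and 6.21 in the arrays labelled TNF-/-, against 4.48, 4.93, 4.24 and 4.47 in those labelled TNF+/+ (limma, difference 1.39 ± 0.16 SE, adjusted p = 0.0278), with a difference of 1.21 without TNF+/+ arrays 3 and 4 (adjusted p = 0.216). Where its probes lie relative to the deletion is not stated, so each direction below is that of the arrays as labelled. Arrays 3 and 4 labelled TNF+/+ stood apart on the first principal component of all probe sets, at 22.05 and 37.22 against -4.29 or lower for the other 6. Array 1 labelled TNF+/+ had high signal of cerebellar granule cell genes, with a mean of 7.88 over 10 markers against 6.55 to 6.70 in the other 7 arrays. Of these, Gabra6, Cbln3 and Fat2 averaged 4.17, 4.14 and 3.83 under the label TNF-/-, below the median gene (signal 5.44). Under TNF+/+ they averaged 5.24 ± 1.98, 4.83 ± 1.51 and 4.35 ± 0.77 (SD, n = 4). The other markers, such as Etv1 (8.93) and Reln (8.56) under TNF-/-, were brighter than the median gene. Brain as the tissue fits the signal of 13 neuronal markers, which averaged between 10.59 and 10.61 under the label TNF-/- and between 10.53 and 10.61 under TNF+/+. These markers do not show that the arrays hold the same brain regions, and the granule cell genes differed in array 1 labelled TNF+/+.

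Respiratory chain signal was highest in arrays 3 and 4 labelled TNF+/+. Each gene was expressed as its deviation from its own mean over the 8 arrays, and these deviations were averaged. Over the 81 genes the mean deviation was -0.04, -0.10, 0.00 and -0.02 in arrays 1 to 4 labelled TNF-/-, against -0.08, -0.03, 0.09 and 0.17 in arrays 1 to 4 labelled TNF+/+. Arrays 3 and 4 labelled TNF+/+ were therefore the highest of the 8, and the other 2 TNF+/+ arrays lay within the range of the arrays labelled TNF-/-. The same average over all 19938 genes lay between -0.009 and 0.024 under the label TNF-/- and between -0.021 and 0.007 under TNF+/+.

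Arrays 3 and 4 labelled TNF+/+ were the highest in all 5 complexes, while the place of arrays 1 and 2 varied. Array 4 labelled TNF+/+ had the highest mean deviation of every complex, at 0.163 for complex I, 0.173 for complex II, 0.214 for complex III, 0.167 for complex IV and 0.187 for complex V. Array 3 labelled TNF+/+ came next in each, at 0.073 to 0.138. The lowest array differed between complexes: array 2 labelled TNF-/- was lowest for complexes IV and V (-0.114 and -0.110), array 1 labelled TNF+/+ for complexes I and III (-0.101 and -0.089), and array 2 labelled TNF+/+ for complex II (-0.141).

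**Figure D1:**
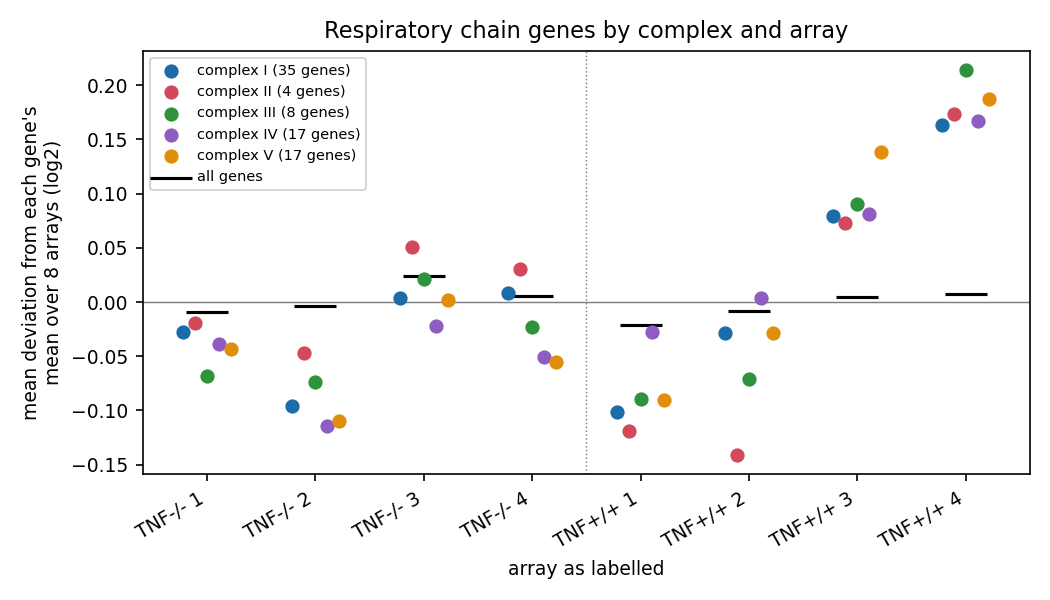
Mean deviation of the genes of each complex from their own means over the 8 arrays (log2, y axis) in each array (x axis, arrays labelled TNF-/- at the left). Points are complexes I to V with their number of genes and dashes are all 19938 genes; arrays 3 and 4 labelled TNF+/+ lie above the other 6 for every complex, up to 0.214 for complex III.

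Gene by gene, 65 of the 81 had their highest signal in array 3 or array 4 labelled TNF+/+, 16 in array 3 and 49 in array 4. In 32 genes, or 39.5%, both of these arrays lay above the other 6, against 9.1% of all genes and 8.46% of the genes brighter than the median gene. Array 4 alone was the highest in 60.5% of the 81, against 17.2% of all genes and 19.2% of the bright ones. The lowest signal fell most often in array 1 labelled TNF+/+ (24 genes) and array 2 labelled TNF-/- (23 genes). The SD between arrays had a median of 0.09 under the label TNF-/- and 0.14 under TNF+/+, and it was larger under TNF+/+ in 59 of 81 genes (72.8%, against 56.8% of all genes).

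**Figure D2:**
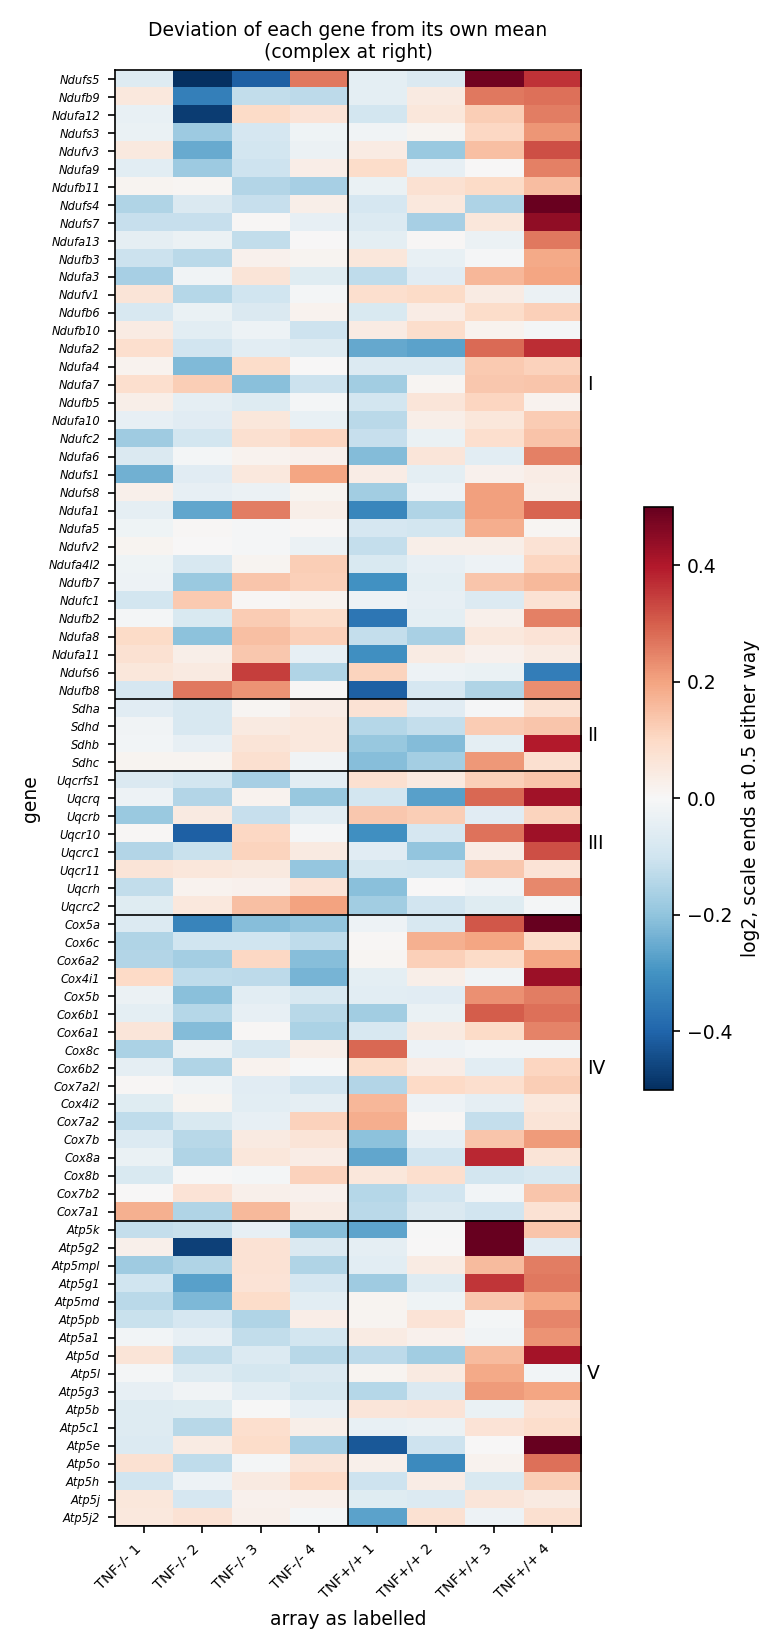
Deviation of each of the 81 genes from its own mean (log2 colour scale that ends at 0.5 either way) in the 8 arrays, with arrays labelled TNF-/- at the left and genes grouped by complex and ordered by their difference. The columns of arrays 3 and 4 labelled TNF+/+ are mostly above each gene's mean, and 49 of 81 genes peak in the last column.

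Other cell types and gene groups moved with these arrays to differing degrees. Of 9 measured oligodendrocyte markers, 5 had arrays 3 and 4 labelled TNF+/+ as their highest, and their mean signal lay between 9.31 and 9.45 under the label TNF-/- and between 9.50 and 9.77 under TNF+/+, with 9.73 and 9.77 in arrays 3 and 4. The same held for 1 of 13 neuronal, 2 of 10 astrocyte, 1 of 9 microglial and 3 of 9 endothelial markers, and for none of 9 pericyte, 8 choroid plexus, 9 meningeal, 10 cerebellar granule cell, 8 parvalbumin interneuron and 4 blood markers. Some of these lists differed between the groups as labelled. Mean signal of the meningeal markers lay between 6.36 and 6.41 under TNF-/- and between 6.11 and 6.29 under TNF+/+, with 8 of 9 higher in the arrays labelled TNF-/- and a median difference of 0.215 (0.258 without TNF+/+ arrays 3 and 4). That of the parvalbumin interneuron markers lay between 8.34 and 8.46 under TNF-/- and between 8.24 and 8.33 under TNF+/+, with 8 of 8 higher. Their median difference was 0.114, and 0.076 without TNF+/+ arrays 3 and 4 (6 of 8 higher). Pvalb itself differed by 0.02 ± 0.11 (SE; limma, adjusted p = 0.965). The widest difference of this list was that of Gad1, at 0.26 ± 0.10 (adjusted p = 0.405). Lower were 9 of 9 oligodendrocyte, 7 of 9 microglial and 4 of 4 blood markers, against 52.2% of all genes and 35.5% of those brighter than the median gene. Limma called 0 genes of these lists. At an unadjusted p under 0.05 the higher markers were 3 meningeal, 2 neuronal, 1 astrocyte, 1 choroid plexus and 1 parvalbumin interneuron, against 7.37% of all genes. The parvalbumin interneuron one is Gad1, which is also counted among the neuronal ones. Lower at that threshold were 5 oligodendrocyte, 2 microglial, 1 neuronal, 1 astrocyte and 1 blood marker, against 4.28% of all genes. The part of cell make-up in the result was not tested, and in a lysate fewer cells of a type and less RNA per cell cannot be told apart.

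Between the groups as labelled, no respiratory chain gene passed the test. With all 8 arrays, limma called 0 of 81 genes at an adjusted p under 0.05, against 0.0816% of all probe sets and 0.0502% of all genes, and SAM (significance analysis of microarrays) called 0 of 81, against 0.149% of probe sets. The smallest limma adjusted p was 0.249. At an unadjusted p under 0.05 there were 7 lower and 1 higher in the arrays labelled TNF-/-, which is 8.64% and 1.23% of the 81, against 4.28% and 7.37% of all genes (10.8% of probe sets in either direction). Of the 81 genes 64 were lower, with a median difference of -0.07, while 52.2% of all genes were lower with a median of -0.006. Since 71 of the 81 were brighter than the median gene, the bright genes are the closer comparison: 35.5% of these were lower, with a median of 0.047.

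Leaving out arrays 3 and 4 labelled TNF+/+ turned the sign of the median of complexes I, III and V. The TNF+/+ group then consisted of arrays 1 and 2. Array 1 is the one with high cerebellar granule cell signal (7.88, against 6.55 to 6.70 in the other arrays), and it was lowest in 24 of the 81 genes. The 6-array values thus also rest on an array that stood apart in these markers. With the remaining 6 arrays limma again called 0 of 81 genes (0.0% of all probe sets) and SAM 0 of 81 (0.0169%), at a smallest limma adjusted p of 0.409, and 9 had an unadjusted p under 0.05, 3 lower and 6 higher (3.7% and 7.41%, against 3.44% and 5.66% of all genes). The median difference over the 81 was then 0.025, with 37 lower (45.7%, against 47.3% of all genes and 33.0% of the bright ones) and 44 higher. Of the 64 genes lower with all arrays, 28 were higher without arrays 3 and 4. The SE of a gene's difference ran from 0.05 to 0.20 with 8 arrays and from 0.06 to 0.21 with 6, against differences of at most 0.40 and 0.35.

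By complex, the median difference was -0.054 for complex I with all arrays (27 of 35 lower) and 0.039 without arrays 3 and 4 labelled TNF+/+ (15 lower). For complex II it was 0.015 (2 of 4 lower) and 0.173 (1 lower), and for complex III -0.102 (7 of 8 lower) and 0.097 (2 lower). Complex V gave -0.117 (14 of 17 lower) and 0.013 (7 lower). Complex IV alone kept a negative median, at -0.091 (14 of 17 lower) and -0.063 (12 lower). No test of one complex against another was run, and both sets of values share the 4 arrays labelled TNF-/- and 2 TNF+/+ arrays.

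**Figure D3:**
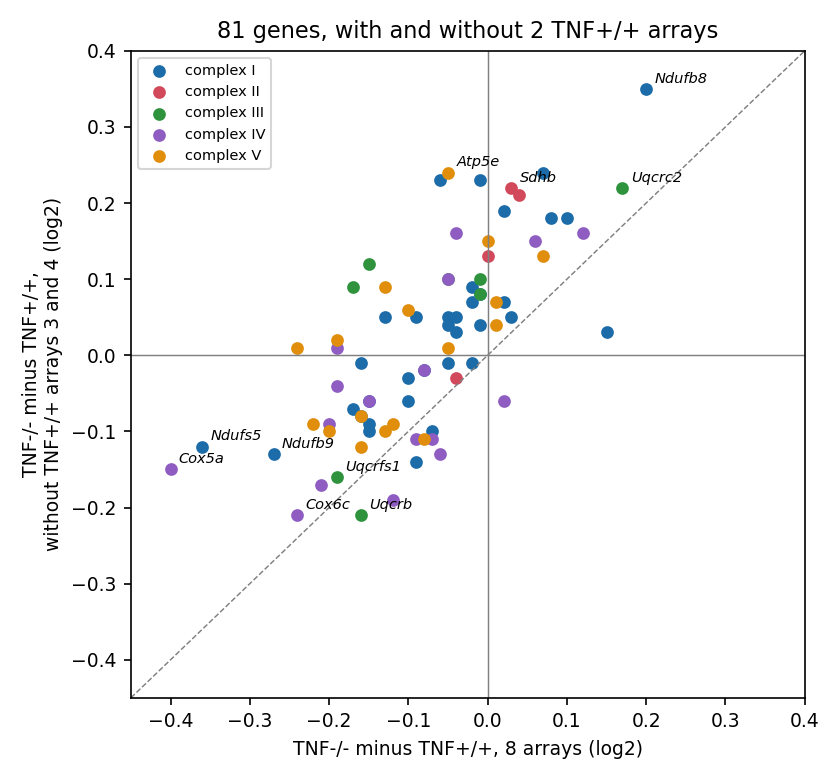
Difference of each of the 81 genes with all 8 arrays (x axis, log2) against the difference without arrays 3 and 4 labelled TNF+/+ (y axis, log2), coloured by complex; both axes share 6 arrays, and the dashed line marks equal values. Most genes lie above the line, and Cox6c, Uqcrfs1 and Uqcrb lie near it at about the same negative difference with both sets.

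In 3 genes every array labelled TNF-/- lay below every array labelled TNF+/+, in none above. That is 3.7% of the 81, against 3.5% (below) and 4.16% (above) of all genes, so the share is near the background. The 3 are Cox6c, Uqcrfs1 and Ndufs3, which encode a small membrane subunit of complex IV, the Rieske iron-sulfur protein of complex III and a core subunit of the ubiquinone-reducing part of complex I.

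Cox6c signal was 10.71, 10.76, 10.76 and 10.73 in the arrays labelled TNF-/-, against 10.86, 11.04, 11.06 and 10.95 in those labelled TNF+/+. Its arrays labelled TNF-/- lay close together, with an SD of 0.02, and all TNF+/+ arrays were above them. The difference was -0.24 ± 0.06 (SE; limma, adjusted p = 0.249), a signal 0.848-fold that of TNF+/+, and -0.21 without TNF+/+ arrays 3 and 4 (limma, adjusted p = 0.449). A second probe set of Cox6c gave -0.26 ± 0.06. With any 1 array left out the difference stayed between -0.275 and -0.211 (limma, adjusted p from 0.259 to 0.504).

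Uqcrfs1 signal was 7.09, 7.08, 7.001 and 7.12 in the arrays labelled TNF-/-, against 7.25, 7.21, 7.29 and 7.31 in those labelled TNF+/+. The difference was -0.19 ± 0.05 (SE; limma, adjusted p = 0.283) and -0.16 ± 0.06 without TNF+/+ arrays 3 and 4 (adjusted p = 0.493), so these arrays were high for this gene but not far above arrays 1 and 2. Ndufs3 signal was 9.605, 9.456, 9.553 and 9.616 under the label TNF-/-, against 9.622, 9.650, 9.740 and 9.858 under TNF+/+. The gap between the groups was 0.01 or less, and the difference of -0.16 ± 0.07 became -0.08 without TNF+/+ arrays 3 and 4 (limma, adjusted p = 0.459 and 0.726). Its other probe set gave -0.12 ± 0.09, and -0.03 without those arrays (limma, adjusted p = 0.621 and 0.912).

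**Figure D4:**
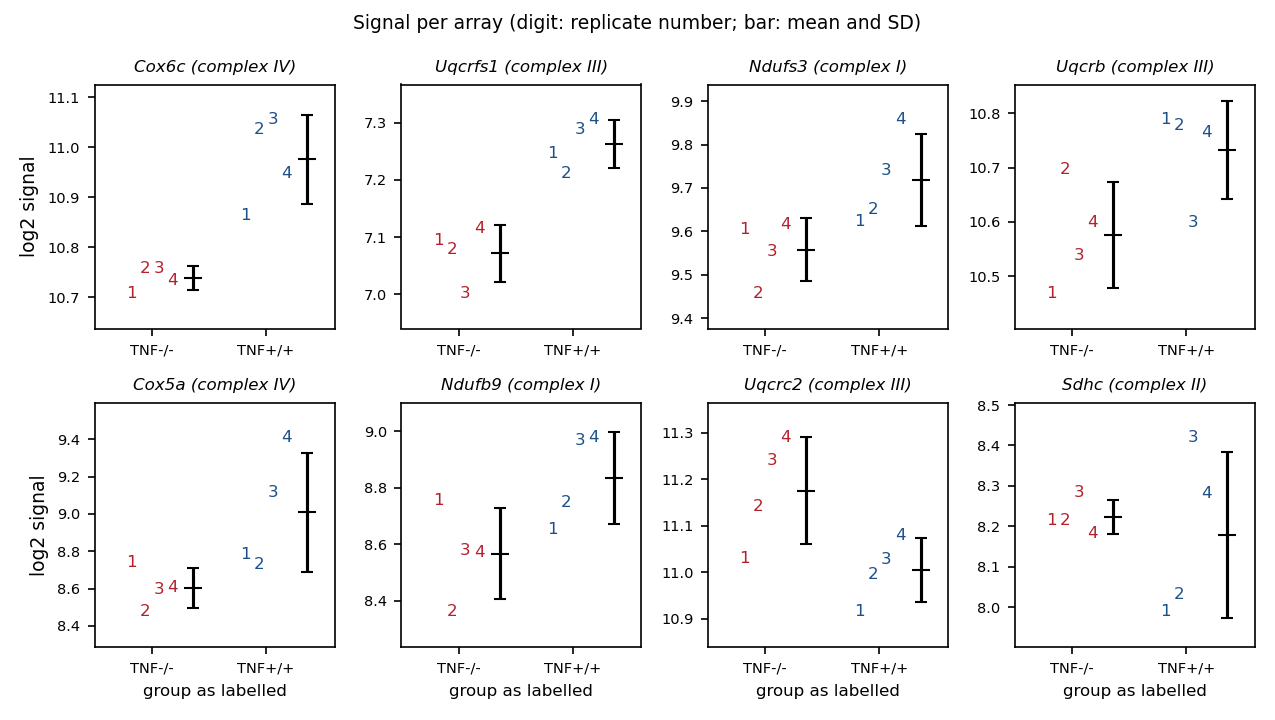
Log2 signal (y axis, its range set per gene) of 8 genes in the arrays labelled TNF-/- (red) and TNF+/+ (blue), where digits are replicate numbers and bars the mean and SD of 4 arrays. Cox6c, Uqcrfs1 and Ndufs3 do not overlap between groups, while Cox5a and Sdhc are spread by arrays 3 and 4 labelled TNF+/+.

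Among the other genes of complex I, those with the smallest p were Ndufb9, Ndufb11 and Ndufa9, accessory subunits of the membrane arm and of its junction with the matrix arm. Ndufb9 signal was 8.75, 8.36, 8.58 and 8.57 in the arrays labelled TNF-/-, against 8.65, 8.75, 8.97 and 8.98 in those labelled TNF+/+. The groups overlapped, and the difference of -0.27 ± 0.11 (SE) was -0.13 ± 0.11 without TNF+/+ arrays 3 and 4 (limma, adjusted p = 0.423 and 0.705). Ndufa9 and Ndufb11 differed by -0.15 each with 8 arrays (limma, adjusted p = 0.521 and 0.488) and by -0.10 and -0.09 with 6. Another probe set of Ndufb11 gave -0.12 ± 0.09 with 8 arrays and 0.02 with 6. The full range in complex I was -0.36, in Ndufs5, to 0.20, in Ndufb8.

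A further 3 genes of complex I, picked after their values were seen, differed in how arrays 3 and 4 labelled TNF+/+ bore on them. Ndufb8, an accessory subunit of the membrane arm, had signals of 7.21, 7.55, 7.51 and 7.29 in the arrays labelled TNF-/-, against 6.88, 7.20, 7.14 and 7.52 in those labelled TNF+/+, and its difference was 0.20 ± 0.14 with 8 arrays and 0.35 ± 0.14 with 6 (limma, adjusted p = 0.611 and 0.487). Ndufa2, an accessory subunit of the matrix arm, had 7.35, 7.17, 7.22 and 7.20 under TNF-/-, against 7.01, 6.999, 7.55 and 7.64 under TNF+/+. All 4 arrays labelled TNF-/- thus lay between the lower and the higher pair of TNF+/+ arrays, and the difference was -0.06 with 8 arrays and 0.23 with 6, a change of sign. Ndufv1, the flavin-carrying core subunit where NADH is oxidised, differed by -0.09 ± 0.06 and -0.14 ± 0.08.

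For complex II, the enzyme shared with the citric acid cycle, all 4 genes were measured. Sdhc, a membrane anchor subunit, had signals of 8.21, 8.21, 8.28 and 8.18 in the arrays labelled TNF-/-, against 7.99, 8.03, 8.42 and 8.28 in those labelled TNF+/+. Sdhb, the iron-sulfur subunit, had 7.82, 7.79, 7.90 and 7.89 under TNF-/-, against 7.64, 7.62, 7.79 and 8.23 under TNF+/+. In both genes TNF+/+ arrays 1 and 2 lay below all TNF-/- arrays; of the other two, array 3 was above them all for Sdhc and below them all for Sdhb, and array 4 among them for Sdhc and above them for Sdhb. The difference of Sdhc was 0.04 ± 0.10 with 8 arrays and 0.21 ± 0.06 with 6 (limma, adjusted p = 0.888 and 0.409), and that of Sdhb 0.03 ± 0.13 and 0.22 ± 0.06 (adjusted p = 0.948 and 0.412). Sdhd, the other membrane anchor, differed by -0.000838 and 0.13, and Sdha, the flavoprotein that oxidises succinate, by -0.04 ± 0.06 and -0.03 ± 0.07.

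In complex III the genes with the smallest p after Uqcrfs1 differed in opposite directions. Uqcrc2, a core protein of the matrix side, had signals of 11.03, 11.14, 11.24 and 11.29 in the arrays labelled TNF-/-, against 10.91, 10.99, 11.03 and 11.08 in those labelled TNF+/+. The groups overlapped. It was the 1 member with an unadjusted p under 0.05 in the higher direction, at 0.17 ± 0.07 with 8 arrays and 0.22 ± 0.09 with 6 (limma, adjusted p = 0.444 and 0.495). Uqcrb, the ubiquinone-binding subunit, had 10.47, 10.70, 10.54 and 10.60 under TNF-/-, against 10.79, 10.78, 10.60 and 10.76 under TNF+/+. Its array 3 labelled TNF+/+ was the low one of its group, and the difference was -0.16 ± 0.07 with 8 arrays and -0.21 ± 0.08 with 6 (limma, adjusted p = 0.476 and 0.480). All 3 probe sets of Uqcrb gave differences of -0.15 to -0.18. Uqcrq, which encodes another ubiquinone-site subunit, differed by -0.17 ± 0.15 and then by 0.09 ± 0.09.

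In complex IV the widest difference was that of Cox5a, a matrix-side subunit to which thyroid hormone metabolites are known to bind. Its signal was 8.74, 8.47, 8.59 and 8.61 in the arrays labelled TNF-/-, against 8.78, 8.73, 9.12 and 9.41 in those labelled TNF+/+. TNF+/+ arrays 3 and 4 were far above the rest, and the difference of -0.40 ± 0.15 shrank to -0.15 ± 0.09 without them (limma, adjusted p = 0.396 and 0.588). Cox5b, the zinc-binding subunit, differed by -0.19 ± 0.09 and then by -0.04 ± 0.07, with its second probe set at -0.20 ± 0.10 with 8 arrays.

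Complex IV is the complex whose subunits come in ubiquitous and tissue-restricted forms. Of the ubiquitous forms, Cox4i1 differed by -0.20 ± 0.12, Cox6a1 by -0.15 ± 0.09, Cox6b1 by -0.19 ± 0.11, Cox7a2 by -0.06 ± 0.08 and Cox8a by -0.04 ± 0.13 (limma, adjusted p from 0.569 to 0.919). Without TNF+/+ arrays 3 and 4 these were -0.09, -0.06, 0.01, -0.13 and 0.16. Of the restricted forms, Cox6a2, the heart and muscle form, differed by -0.21 ± 0.08 and -0.17 ± 0.10 (adjusted p = 0.412 and 0.615), and Cox7a1, its counterpart among the Cox7a genes, by 0.12 ± 0.09 and 0.16 ± 0.11. Cox4i2, a form tied to lung and to pericytes of brain, differed by -0.07 ± 0.06, the testis forms Cox6b2, Cox7b2 and Cox8c by -0.09, 0.06 and -0.12, and Cox8b by 0.02. All of these restricted forms, together with Ndufa4l2, Ndufb2 and Ndufb10, were dimmer than the median gene (signal 5.44).

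Ndufa4, long counted with complex I and now known as a subunit of complex IV, differed by -0.05 ± 0.09 and 0.04 ± 0.10, and its paralogue Ndufa4l2 by 0.02 ± 0.07 and 0.07 ± 0.08 (limma, adjusted p = 0.839 and 0.939 with 8 arrays). Cox7a2l, which joins complexes III and IV into supercomplexes, differed by -0.08 ± 0.07 in the probe set used and by 0.05 ± 0.06 in another. Probe sets also disagreed in sign for Ndufa11, at 0.10 ± 0.09 and -0.18 ± 0.10, and for Atp5h, at 0.01, -0.03 and -0.13, so no direction can be given for these genes.

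In complex V the 4 genes with the smallest p were Atp5mpl, Atp5pb, Atp5a1 and Atp5l, which encode a small membrane proteolipid, the b subunit of the stalk, the catalytic-head subunit alpha and subunit g. Atp5mpl signal was 8.79, 8.82, 9.04 and 8.82 in the arrays labelled TNF-/-, against 8.91, 9.01, 9.12 and 9.22 in those labelled TNF+/+, a difference of -0.20 ± 0.09, or -0.10 ± 0.09 without TNF+/+ arrays 3 and 4 (limma, adjusted p = 0.455 and 0.738). Atp5a1 signal was 11.92, 11.89, 11.81 and 11.84 under TNF-/-, against 11.98, 11.96, 11.92 and 12.16 under TNF+/+, so that the groups overlapped at 11.92. Its difference of -0.13 ± 0.07 was -0.10 ± 0.06 with 6 arrays, and that of Atp5b, the catalytic subunit beta, -0.08 ± 0.05 and -0.11 ± 0.06 (limma, adjusted p = 0.501 and 0.576 with 8 arrays). Atp5pb gave -0.16 ± 0.07 and -0.12 ± 0.07, while its other probe set gave -0.12 ± 0.11 with 8 arrays and 0.03 with 6. Atp5l gave -0.12 ± 0.06 and -0.09 ± 0.06, and its 6 probe sets lay between -0.12 and -0.01 with 8 arrays.

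The proton-carrying c ring of ATP synthase is built from a single mature peptide that 3 genes encode with different import sequences. Atp5g1 signal averaged 8.21 ± 0.14 in the arrays labelled TNF-/- and 8.40 ± 0.26 in those labelled TNF+/+, Atp5g2 9.11 ± 0.24 and 9.33 ± 0.29, and Atp5g3 10.45 ± 0.03 and 10.55 ± 0.18 (SD, n = 4 each). None of these differences passed the test (limma, adjusted p = 0.613, 0.644 and 0.706), and each was smaller than the SD between the arrays labelled TNF+/+. Atp5g1 and Atp5g3 were both highest in TNF+/+ arrays 3 and 4, and differed by 0.02 and 0.06 without them, whereas Atp5g2 had a single high TNF+/+ array, array 3 at 9.76, and differed by -0.09.

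With the 6 arrays left after setting TNF+/+ arrays 3 and 4 aside, 9 genes lay lower in every array labelled TNF-/- and 8 higher. These are 11.1% and 9.88% of the 81, against 9.77% and 11.7% of all genes, so both shares are near the background. The 9 lower were Ndufs3, Ndufv1, Uqcrfs1, Uqcrb, Cox6c, Cox6b2, Atp5a1, Atp5b and Atp5l, and the 8 higher Ndufa2, Ndufa5, Ndufb8, Sdhb, Sdhc, Sdhd, Uqcrc2 and Cox7b2. Atp5a1 and Atp5b were in the first set, but in complex V as a whole 7 genes were lower and 10 higher with 6 arrays. Among the higher were Atp5c1, Atp5d and Atp5e, at 0.01, 0.09 and 0.24. In the second set were 3 of the 4 complex II genes, while Sdha differed by -0.03. With both shares near the background, no pattern by complex is read from these sets.

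Promoter windows of RefSeq (GRCm38.p6, 250 bases before to 50 after the start) were at hand for 66 of the 81 genes and were searched on both strands for the letters of 3 motifs of factors known to act on respiratory chain genes. The NRF1 motif, the 10 letters in capitals in the lines below, was present in 5 genes, or 7.58%, against 1.62% of 15563 array genes and 0.971% of all 32851 windows. The ETS motif bound by GABPA, ACCGGAAG, was in 7 (10.6%, against 3.6% of array genes and 2.3% of windows), and the YY1 motif AAGATGGC in 10 (15.2%, against 3.77% and 2.75%). In all, 22 of the 66 held one of these motifs, and none held more than 1. NRF1 is a regulator of nuclear respiratory genes, and its motif stood in Ndufa11, Uqcrc1, Cox6a1, Atp5g2 and Atp5k. Of these 5, Cox6a1 and Atp5k had TNF+/+ arrays 3 and 4 as their highest, as did 39.5% of the 81 genes. The count is thus near the share of all members, and no link of motif and arrays is read from it. A match describes letters and is not a binding site. The 250 bases before the start are printed for the 2 non-overlapping genes that the table holds, Ndufs3 and Uqcrfs1, and for the 4 genes whose NRF1 motif, in capitals, lies before the start.
Ndufs3 (chr2:90904722-90904971, minus strand) held no motif in these bases; its ETS motif lay beyond them.
Ndufs3: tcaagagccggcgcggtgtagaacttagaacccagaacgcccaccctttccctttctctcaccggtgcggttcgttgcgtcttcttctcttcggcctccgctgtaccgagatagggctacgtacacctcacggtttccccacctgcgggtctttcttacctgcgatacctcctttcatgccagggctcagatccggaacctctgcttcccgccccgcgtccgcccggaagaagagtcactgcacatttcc
Uqcrfs1 (chr13:30545317-30545566, minus strand) held none of the 3 motifs.
Uqcrfs1: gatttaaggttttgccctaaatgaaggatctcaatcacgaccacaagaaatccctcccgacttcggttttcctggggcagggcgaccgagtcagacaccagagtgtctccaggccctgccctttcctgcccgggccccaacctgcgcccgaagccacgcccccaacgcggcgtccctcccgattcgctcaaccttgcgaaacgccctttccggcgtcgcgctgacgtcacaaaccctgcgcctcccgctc
Ndufa11 was read from chr17:56717512-56717761, plus strand.
Ndufa11: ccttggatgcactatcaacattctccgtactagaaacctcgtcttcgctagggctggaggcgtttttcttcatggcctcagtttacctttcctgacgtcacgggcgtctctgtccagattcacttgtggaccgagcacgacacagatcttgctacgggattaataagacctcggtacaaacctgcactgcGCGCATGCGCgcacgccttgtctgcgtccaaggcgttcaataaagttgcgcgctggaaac
Cox6a1 was read from chr5:115348959-115349208, minus strand.
Cox6a1: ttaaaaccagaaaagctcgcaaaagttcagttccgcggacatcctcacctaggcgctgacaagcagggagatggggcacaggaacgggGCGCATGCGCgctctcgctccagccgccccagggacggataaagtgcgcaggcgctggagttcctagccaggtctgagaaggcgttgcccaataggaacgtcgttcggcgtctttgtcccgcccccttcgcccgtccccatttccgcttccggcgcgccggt
Atp5g2 was read from chr15:102671048-102671297, minus strand.
Atp5g2: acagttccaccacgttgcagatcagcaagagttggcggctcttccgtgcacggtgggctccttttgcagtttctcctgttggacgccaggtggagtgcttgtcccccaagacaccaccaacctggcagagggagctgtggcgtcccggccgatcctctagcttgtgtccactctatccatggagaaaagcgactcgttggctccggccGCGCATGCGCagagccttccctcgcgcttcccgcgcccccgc
Atp5k was read from chr5:108434400-108434649, minus strand.
Atp5k: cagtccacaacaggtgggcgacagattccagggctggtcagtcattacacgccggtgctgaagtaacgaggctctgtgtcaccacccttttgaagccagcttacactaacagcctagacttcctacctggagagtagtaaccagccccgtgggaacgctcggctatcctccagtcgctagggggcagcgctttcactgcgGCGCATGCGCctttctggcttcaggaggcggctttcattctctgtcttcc

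Genes around the respiratory chain were counted next. Assembly factors, which build the complexes without being part of them, gave 0 of 45 measured genes past the limma threshold, with 18 lower and 27 higher and a median of 0.031 (0.105 without TNF+/+ arrays 3 and 4). The 2 with the smallest p were Lyrm7, an assembly factor of complex III, at -0.26 ± 0.06 (SE), and Coa5, one of complex IV, at 0.24 ± 0.06 (limma, adjusted p = 0.247 and 0.252). Citric acid cycle genes gave 0 of 16, with 6 lower and a median of 0.036 (0.113 without arrays 3 and 4); Suclg1 and Suclg2, subunits of succinyl-CoA synthetase, stood at -0.19 ± 0.09 and 0.18 ± 0.09. Of the 13 symbols of subunits encoded in mitochondrial DNA, none was paired alone with a probe set, so those were not analysed here.

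Of 16 regulators of mitochondrial biogenesis, 14 had a higher mean under the label TNF-/- and 2 a lower one, or 12.5%, where 52.2% of all genes and 35.5% of the bright ones were lower. Their median difference was 0.086, and 0.093 without TNF+/+ arrays 3 and 4 (13 higher). The median of the 81 respiratory chain genes was also above 0 without those arrays. No test of the regulators against the 81 genes was run. Limma called 0 of 16. Tfb1m, which encodes a methyltransferase of mitochondrial ribosomal RNA, averaged 6.48 ± 0.14 in the arrays labelled TNF-/- and 5.93 ± 0.15 in those labelled TNF+/+ (SD, n = 4 each), a difference of 0.55 ± 0.10 (limma, adjusted p = 0.13), which passed when probe sets with 1 gene symbol alone were tested (adjusted p = 0.0406). Gabpb2, which encodes a partner of the ETS factor GABPA, differed by 0.42 ± 0.14 (limma, adjusted p = 0.374). This was 0.267 without TNF+/+ array 4, its low array at 5.47, and 0.234 without TNF+/+ arrays 3 and 4.

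Carriers and energy transfer genes, among them cytochrome c and the adenine nucleotide translocases, were lower in 16 of 19 genes, with a median of -0.077 (-0.003 without TNF+/+ arrays 3 and 4), and 8 of 19 had those arrays as their highest. Cyc1 and Ndufab1, which the symbol rule leaves out of complexes III and I, were counted in this list. Nnt fell, the 1 gene of these lists that limma called. It encodes the transhydrogenase that makes NADPH in mitochondria, and is known to be partly deleted in the substrain C57BL/6J. Its signal averaged 7.42 ± 0.07 in the arrays labelled TNF-/- and 8.15 ± 0.13 in those labelled TNF+/+ (limma, difference -0.74 ± 0.07, adjusted p = 0.0151). Without TNF+/+ arrays 3 and 4 the difference was -0.83 (adjusted p = 0.0857), and with the replicate number as a block it was again -0.74 (adjusted p = 0.129). With any 1 array left out it lay between -0.782 and -0.681, so its size held, while limma's adjusted p was 0.0562 to 0.0884 without any 1 of the 4 arrays labelled TNF-/- or without TNF+/+ array 1 or 3. Etfa, which carries electrons from fatty acid oxidation, stood at -0.18 ± 0.05 (limma, adjusted p = 0.333).

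Ribosomal protein genes, likewise numerous, served as a yardstick, but they were not matched in brightness. Mean signal per array was 6.89 to 7.16 for the mitochondrial and 8.04 to 8.26 for the cytosolic list, against 8.30 to 8.57 for the 81 genes. The cytosolic list was made by symbol and also holds entries such as Rpl14-ps1, Rps19-ps3 and Rps19bp1. Of 77 mitochondrial ribosomal protein genes 41 were lower, with a median of -0.018 (0.079 without TNF+/+ arrays 3 and 4), and of 64 cytosolic ones 43, with a median of -0.067 (0.024). Arrays 3 and 4 labelled TNF+/+ were the highest in 15 of 77 (19.5%) and 13 of 64 (20.3%), against 39.5% of the respiratory chain genes and 9.1% of all genes. A share as high was not particular to the chain, at 42.1% of the carriers and energy transfer genes and 55.6% of the oligodendrocyte markers. It was 15.6% of the assembly factors, 18.8% of the citric acid cycle genes and 0.0% of the biogenesis regulators. Both ribosomal lists moved in the same direction as the respiratory chain when those arrays were left out. Whether the shares differ was not tested.

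**Figure D5:**
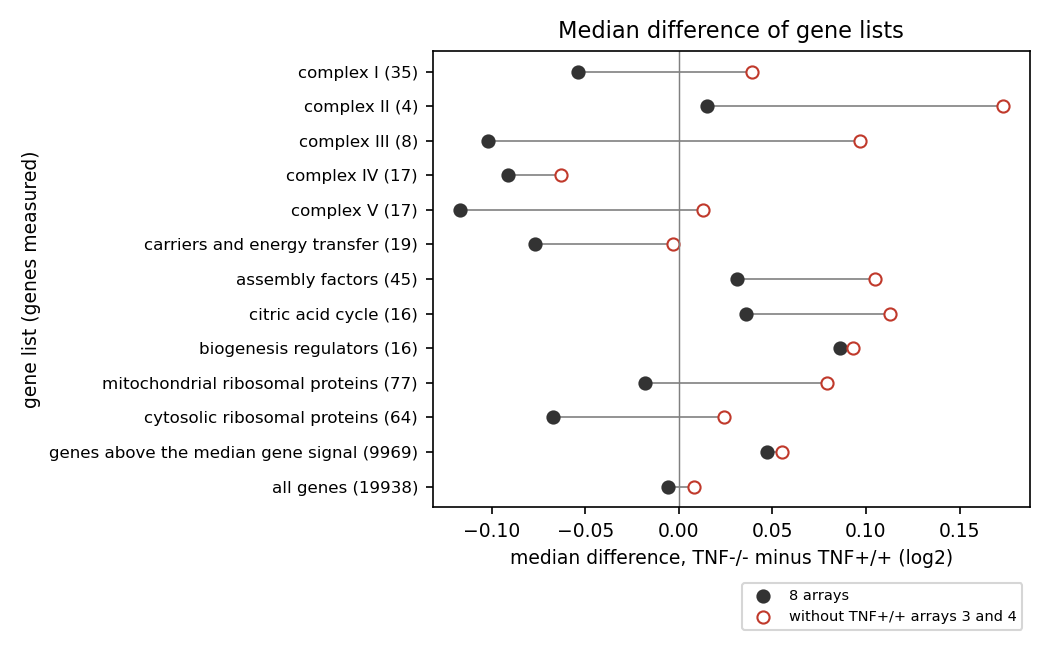
Median difference of each gene list (x axis, log2, TNF-/- minus TNF+/+ as labelled; lists with their number of genes on the y axis) with 8 arrays (filled) and without arrays 3 and 4 labelled TNF+/+ (open). Complexes I, III and V cross from negative to positive, complex IV stays negative at -0.063, and biogenesis regulators stay at 0.086 and 0.093.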

How the data were processed

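Brain RNA was measured on 8 Affymetrix arrays, 4 labelled TNF-/- and 4 TNF+/+ by the sample titles. The deposited table holds the authors' log2 signal of 35556 probe sets, from 2.83 to 14.1; GCOS, GCRMA and Partek are named, without versions or roles, per the submitters' processing notes, and the log2 scale follows from the values. The number of arrays limits the precision.

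Probe sets were named by the platform annotation: 21789 have 1 gene symbol, 1621 several and 12146 none listed. All 81 members matched RefSeq (GRCm38.p6) by gene ID, and 16 had several probe sets, which can include near-identical copies. Cox7c and Ndufb4 share their probe sets with other symbols and stayed out. Values were used as deposited in limma 3.58.1 (R 4.3.3; lmFit, eBayes, two-sided), with Benjamini-Hochberg over all probe sets, with all arrays and without TNF+/+ replicates 3 and 4; a call is an adjusted p under 0.05. SAM, which the series' design names, was rebuilt with all 70 assignments. Both were tested on simulated data.

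Members, lists and tests were chosen with earlier results of these data known. Named by rule were the 4 smallest p per complex, isoforms, Sdh genes, non-overlapping genes, genes whose probe sets disagree, and the 2 smallest p per pathway list; other genes were named after their values were seen. Alternatives were other scalings, filters, variance models, probe set choices, member sets, the replicate block and arrays left out. Same-numbered arrays correlated at 0.0672 to 0.112 in their deviations, and differently numbered ones at -0.116 to 0.101. The labels do not say that the numbers pair the samples, so the main fit has no block. The replicate block is given as an alternative, and these correlations do not settle whether it is needed. No 2 arrays held identical values, and 0 columns were left unused.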

Additional observations from a re-analysis of the deposited data

Results flagged for a closer look

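In 9 of 102 groups of 4 arrays, 1 array lay far from the other 3; chance gives about 5. Under the label TNF-/-, Atp5mpl was 9.04 in array 3 (8.79 to 8.82 in the others) and Nnt 7.32 in array 4 (7.44 to 7.46). Under the label TNF+/+, array 1 was low for Ndufa11 (6.73, others 7.05 to 7.07) and Cox7a2l (7.61, others 7.84 to 7.88) and high for Cox8c (4.12, others 3.81 to 3.82). Array 3 was high for Atp5g2 (9.76, others 9.16 to 9.22) and low for Uqcrb (10.60, others 10.76 to 10.79). Array 4 was high for Cox4i1 (10.09, others 9.62 to 9.69) and low for Gabpb2 (5.47, others 6.01 to 6.12). No mean of a complex stood out in this way.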

How the results depend on the processing

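Limma called 0 of the 81 genes under every alternative tried and with each array left out, and SAM called 0, with all arrays and without TNF+/+ replicates 3 and 4. Without those arrays the medians of complexes I, II, III and V moved by more than the spread between arrays, to 0.039, 0.173, 0.097 and 0.013. That of complex IV, -0.091 with all, was -0.171 when dim probe sets or dim members were left out, which leaves 10 of its genes. The other 94 of 100 alternative medians moved less than that spread. With 1 array left out, the medians lay between -0.091 and -0.015 for complex I, -0.039 and 0.062 for II, -0.134 and -0.015 for III, -0.137 and -0.070 for IV, and -0.163 and -0.073 for V.

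Of 728 alternative values for 46 named genes, 32 changed sign; except where arrays were left out, the cause was not tested. Without TNF+/+ arrays 3 and 4 Sdhd became 0.131, Uqcrq 0.0946, Cox6b1 0.00849, Cox8a 0.156, Cox8b -0.0634, Ndufa4 0.0429, Atp5g1 0.0248 and Atp5g3 0.0575. Sdhb became -0.0109 after quantile normalization and Sdhd 0.00392 with array weights. With arrays centred on the median Cox8b became -0.00285, Ndufa4l2 -0.00106 and Atp5h -0.00917. With 1 array left out, Sdhc lay between -0.0194 and 0.124, Sdhb -0.0377 and 0.168, Sdhd -0.0488 and 0.0452, Cox8a -0.137 and 0.0752, Cox8b -0.0207 and 0.0468, Ndufa4 -0.0941 and 0.0106, Ndufa4l2 -0.0209 and 0.0567, and Atp5h -0.024 and 0.0522.

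Over all probe sets limma called 29 with all arrays, 63 among probe sets with 1 gene symbol, 0 without TNF+/+ replicates 3 and 4, and between 1 (without TNF+/+ array 3) and 20 with 1 array left out; SAM called 53. With the replicate number as a block, limma called 0 of the 81 genes and 0 probe sets, and Nnt lost its call at an unaltered difference of -0.736. In their deviations, same-numbered arrays correlated at 0.0672 to 0.112, against -0.116 to 0.101 for differently numbered ones. Whether they share more than a number is not given by the labels and was not tested.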
